A study of Mus musculus with 14 samples.

Results

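Car4, Emb, Apela and Catsperz are 4 of the 29923 gene symbols measured by RNA-seq in 14 mouse liver tumours, and 4 of the 13466 that passed the filter of 1 TPM or more in at least 3 tumours. TPM is a gene's share of all transcripts, corrected for gene length. The 4 genes were selected on these same data because each was lower in LucOS Aoah tumours than in Luc Aoah tumours, so that difference is described below and not tested. The tumours were 3 LucOS Aoah, 4 Luc Aoah, 3 LucOS vector and 4 Luc vector. LucOS tumours came from a transposon plasmid with MYC, luciferase and the added OVA, SIN and SIY antigens, and Luc tumours from the same plasmid without those antigens. Each model received either a plasmid for Aoah, acyloxyacyl hydrolase, an enzyme that removes fatty acid chains from bacterial lipopolysaccharide, or the empty vector PKT2/CLP-Vec. All 4 groups were hepatocellular carcinomas of C57BL/6 mice after tail-vein injection of plasmids with the SB100 transposase, a delivery that reaches mainly hepatocytes, and the EF1a promoter drives MYC. The series text also names an activated CTNNB1 plasmid without assigning it to particular tumours, an anti-PD1 protocol is described without a link to these tumours, and ages were not given. The labels number the tumours and are silent on whether each is a separate animal, so p-values here measure only the spread between these samples, which may be technical.

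Aoah averaged 699 ± 201 TPM in LucOS Aoah tumours (SD, n = 3) and 498 ± 165 TPM in Luc Aoah tumours (SD, n = 4), against 2.10 ± 1.16 TPM in LucOS vector tumours (SD, n = 3) and 18.7 ± 25.4 TPM in Luc vector tumours (SD, n = 4). Luc vector 1 and Luc vector 3 held 18.57 and 54.76 TPM of Aoah, more than the other 5 vector tumours at 0.74 to 3.43 TPM. Some libraries stood apart in RNA composition. Luc Aoah 3 held 1777 TPM of the noncoding RNA Rn7sk, and the remaining 13 tumours held 27.7 to 59.2 TPM. Mitochondrial transcripts made up 16.6% of TPM in LucOS Aoah 3 and 3.41% to 8.45% elsewhere. The hepatocyte markers Alb, Apoa1, Ttr, Serpina1a, Fgb, Tat, Cyp3a11 and Hnf4a were present in every group, with sums from 3346 to 23916 TPM. TPM keeps no depth, so the read depth per sample is unknown.

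Each of the 4 genes has a different known role. Car4 is carbonic anhydrase 4, a membrane-anchored enzyme that faces the outside of the cell and interconverts carbon dioxide and bicarbonate, and it is known from capillary endothelium and kidney tubule. Emb is embigin, an immunoglobulin-family glycoprotein that carries lactate transporters of the monocarboxylate family to the cell surface. Apela is a small secreted peptide hormone, also called Elabela or Toddler, that binds the apelin receptor Aplnr. Catsperz is a subunit of the CatSper calcium channel of sperm flagella.

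The sequences around the 4 transcription starts are shown because the genes were chosen for the same direction of difference, so that any shared letters can be seen. Each runs from 250 bases before to 50 bases after the start in RefSeq, build GRCm38.p6, and all 4 genes matched by symbol. These coordinates belong to that build and not to mm39, the build of the submitters' processing notes. Car4 lies at chr11:84957504-84957803 (+), Emb at chr13:117220323-117220622 (+), Apela at chr8:65037287-65037586 (-) and Catsperz at chr19:6925331-6925630 (-). Capitals mark the motifs found.
Car4: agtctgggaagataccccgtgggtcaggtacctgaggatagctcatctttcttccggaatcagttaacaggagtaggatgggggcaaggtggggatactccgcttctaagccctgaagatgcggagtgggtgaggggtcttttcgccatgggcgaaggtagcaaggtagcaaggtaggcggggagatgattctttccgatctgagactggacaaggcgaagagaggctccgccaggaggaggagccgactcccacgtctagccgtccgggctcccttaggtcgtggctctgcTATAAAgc
Emb: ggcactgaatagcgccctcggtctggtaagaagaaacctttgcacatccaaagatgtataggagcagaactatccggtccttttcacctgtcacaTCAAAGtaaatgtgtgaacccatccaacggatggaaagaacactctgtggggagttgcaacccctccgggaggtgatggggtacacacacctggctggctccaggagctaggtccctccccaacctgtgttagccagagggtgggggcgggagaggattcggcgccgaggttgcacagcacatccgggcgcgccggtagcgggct
Apela: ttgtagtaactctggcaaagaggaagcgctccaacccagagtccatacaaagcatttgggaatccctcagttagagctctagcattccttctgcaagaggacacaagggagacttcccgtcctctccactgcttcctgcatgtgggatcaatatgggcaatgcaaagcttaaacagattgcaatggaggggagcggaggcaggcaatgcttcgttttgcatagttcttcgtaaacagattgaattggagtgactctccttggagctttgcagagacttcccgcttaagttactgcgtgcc
Catsperz: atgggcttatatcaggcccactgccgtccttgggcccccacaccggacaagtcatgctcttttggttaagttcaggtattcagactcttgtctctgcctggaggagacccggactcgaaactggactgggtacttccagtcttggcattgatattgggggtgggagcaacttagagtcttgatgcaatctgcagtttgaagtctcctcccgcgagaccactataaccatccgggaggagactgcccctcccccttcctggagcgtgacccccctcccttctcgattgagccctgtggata

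The 4 short motifs below were searched on both strands, and none was shared by the 4 genes. The TCF/LEF core CTTTGA occurred in 1 of them, Emb, on the reverse strand at -155 relative to the start, and in 16.0% of the 32851 RefSeq windows of the same length. The TATA box TATAAA occurred in 1 of them, Car4, at 42 after the start, and in 13.6% of windows. The E-box CACGTG, in 7.15% of windows, and the nuclear receptor half-site AGGTCA, in 16.3%, were in none of the 4. The GC content was 57.3% for Car4, 57.7% for Emb, 49.0% for Apela and 55.3% for Catsperz, beside a median of 52.7% over all windows.

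Car4 had 0.46, 0.81 and 0.14 TPM in LucOS Aoah tumours, against 15.60, 69.75, 28.96 and 29.63 TPM in Luc Aoah tumours. It had 3.39, 0.55 and 0.27 TPM in LucOS vector tumours, against 4.29, 3.29, 5.40 and 20.64 TPM in Luc vector tumours. Every LucOS Aoah tumour was under 1 TPM and every Luc Aoah tumour above 15, with no overlap between those groups. Within the vector tumours the groups met, since LucOS vector 1 lay just above Luc vector 2. The means were 0.470 TPM in LucOS Aoah and 36.0 TPM in Luc Aoah tumours, and 1.40 TPM in LucOS vector and 8.41 TPM in Luc vector tumours. From low to high the groups ran LucOS Aoah, LucOS vector, Luc vector and Luc Aoah, and each neighbouring pair overlapped.

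Emb had 3.04, 1.59 and 3.13 TPM in LucOS Aoah tumours, against 11.19, 39.70, 13.40 and 13.88 TPM in Luc Aoah tumours. It had 2.11, 1.50 and 1.81 TPM in LucOS vector tumours, against 6.24, 9.97, 8.44 and 15.36 TPM in Luc vector tumours. All 8 Luc tumours were above all 6 LucOS tumours, whether or not they carried Aoah. Mean levels were 2.59 TPM in LucOS Aoah and 19.5 TPM in Luc Aoah tumours, and 1.81 TPM in LucOS vector and 10.0 TPM in Luc vector tumours. The order from low to high was LucOS vector, LucOS Aoah, Luc vector and Luc Aoah, and of the neighbours LucOS Aoah and Luc vector did not overlap while the other pairs did.

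Apela had 0.27, 0.42 and 0.19 TPM in LucOS Aoah tumours, against 1.79, 4.21, 4.48 and 4.13 TPM in Luc Aoah tumours. It had 0.75, 0.22 and 1.38 TPM in LucOS vector tumours, against 1.70, 2.08, 0.54 and 1.70 TPM in Luc vector tumours. It was the lowest of the 4 genes in Luc Aoah tumours by mean TPM, and the highest value in any tumour was 4.48 TPM. The means were 0.293 TPM in LucOS Aoah and 3.65 TPM in Luc Aoah tumours, and 0.783 TPM in LucOS vector and 1.51 TPM in Luc vector tumours. Their order was that of Car4, and each neighbouring pair overlapped.

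Catsperz had 0.96, 0.57 and 0.19 TPM in LucOS Aoah tumours, against 5.42, 16.56, 9.75 and 5.40 TPM in Luc Aoah tumours. It had 1.67, 0.23 and 0.43 TPM in LucOS vector tumours, against 1.70, 1.44, 1.37 and 1.65 TPM in Luc vector tumours. The 4 Luc Aoah tumours stood above the other 10, and the Luc vector tumours lay between 1.37 and 1.70 TPM. Means of 0.573 TPM in LucOS Aoah and 9.28 TPM in Luc Aoah tumours, and of 0.777 TPM in LucOS vector and 1.54 TPM in Luc vector tumours, gave the same order again, with overlap at each step below Luc Aoah.

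**Figure D1:**
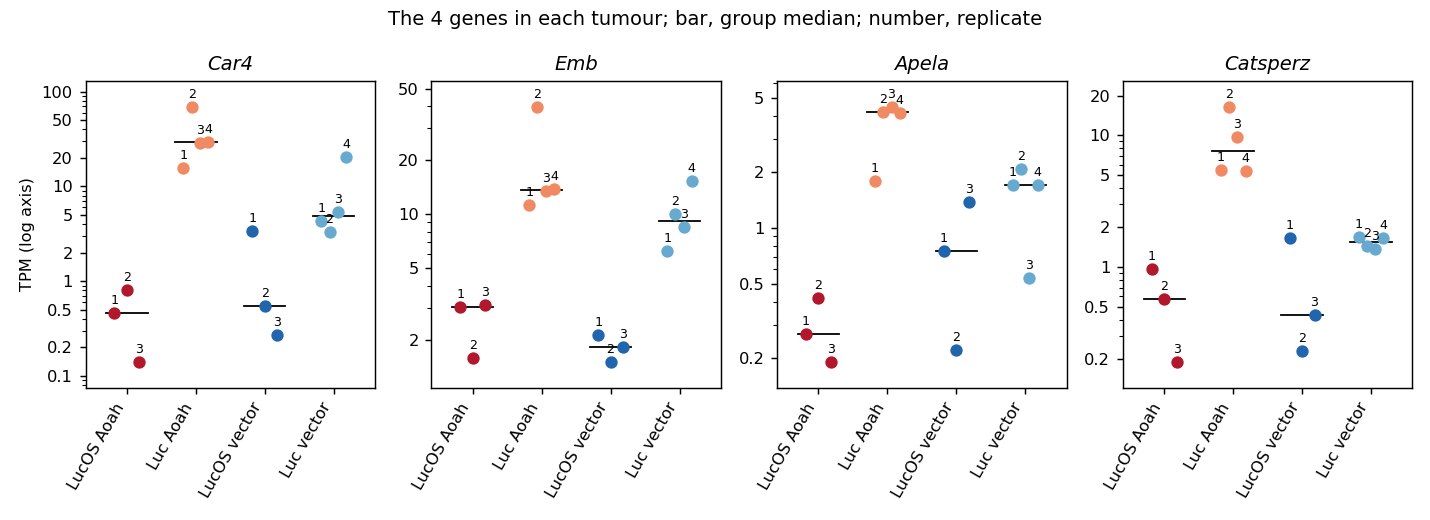
TPM on a log axis of Car4, Emb, Apela and Catsperz in each of the 14 tumours, by group, with a bar at the group median and the replicate number above each point. The 4 Luc Aoah tumours sit above the 3 LucOS Aoah tumours for every gene, and only Emb also separates LucOS vector (1.50 to 2.11 TPM) from Luc vector (6.24 to 15.36 TPM).

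The values that chose the genes, on the log2(TPM + 1) scale, were differences of -4.48 for Car4 (SE 0.57), -2.36 for Emb (SE 0.38), -1.80 for Apela (SE 0.30) and -2.61 for Catsperz (SE 0.35) in LucOS Aoah against Luc Aoah tumours. The LucOS Aoah mean TPM was 0.0131 of the Luc Aoah mean for Car4, 0.132 of it for Emb, 0.0803 of it for Apela and 0.0618 of it for Catsperz. Counted from the most negative difference, Car4 was 2nd, Catsperz 19th, Emb 35th and Apela 62nd of the 13466 genes. Over all genes tested the median difference was -0.01, 0.0817% had an adjusted p under 0.05 (limma, Benjamini-Hochberg) and 5.28% were lower in LucOS Aoah without overlap. The groups did not overlap for any of the 4 genes, and since this contrast chose them, nothing is read from that count.

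In vector tumours LucOS was lower than Luc in mean for all 4 genes, with no call past the threshold. These differences between means do not use the Aoah tumours that chose the genes, but their errors and p-values rest on a spread estimated over all 14 tumours, those included. With only the 7 vector tumours in the fit, limma adjusted p was 0.160 for Emb, 0.293 for Car4, 0.363 for Apela and 0.299 for Catsperz. Emb differed by -1.91 (SE 0.38, 95% interval -2.72 to -1.10), with a limma adjusted p of 0.212, and its groups did not overlap. Car4 differed by -1.87 (SE 0.57, 95% interval -3.09 to -0.64, limma adjusted p = 0.344). For Apela the difference was -0.50 (95% interval -1.14 to 0.15, limma adjusted p = 0.362) and for Catsperz -0.60 (95% interval -1.34 to 0.15, limma adjusted p = 0.355), so neither interval excluded 0. The test called 0 of 13466 genes (0%), while 1918 had an unadjusted limma p under 0.05. All genes together were shifted by a median of -0.25 here, and relative to that shift the differences were -1.66 for Emb, -1.62 for Car4, -0.24 for Apela and -0.35 for Catsperz. Of all genes, 7.63% were lower in LucOS vector tumours without overlap, as Emb was. Without Luc vector 4 alone, Emb differed by -1.70 with a limma adjusted p of 0.461. Leaving out Luc Aoah 2 as well, an alternative chosen after seeing the data, kept the difference at -1.70 and gave a limma adjusted p of 0.0493, so that call came with removing an Aoah tumour outside the contrast. Over all 16 alternatives its adjusted p ranged from 0.0493 to 0.566.

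Aoah against vector used the Aoah tumours that chose the genes, so these values carry no test. Within Luc, all 4 genes were higher in mean with Aoah, by 2.11 for Car4 (SE 0.53), 0.78 for Emb (SE 0.35), 0.89 for Apela (SE 0.28) and 1.89 for Catsperz (SE 0.32). The median over all genes was -0.24, 22.2% of genes had an adjusted p under 0.05 (limma), and 11.8% were higher in Luc Aoah without overlap. Catsperz was the only 1 of the 4 without overlap between Luc Aoah and Luc vector. The authors' deposited table for Luc gives log2 fold changes of 2.42 for Car4 (SE 0.50), 1.16 for Emb (SE 0.35), 1.57 for Apela (SE 0.50) and 2.83 for Catsperz (SE 0.39), read as Aoah over vector from the sign of Aoah itself.

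Within LucOS the differences with Aoah were -0.51 for Car4 (SE 0.61), 0.33 for Emb (SE 0.41), -0.41 for Apela (SE 0.32) and -0.12 for Catsperz (SE 0.37). All 4 overlapped between LucOS Aoah and LucOS vector tumours. The authors' deposited table for LucOS gives -1.77 for Car4 (SE 1.03), 0.39 for Emb (SE 0.39), -1.44 for Apela (SE 0.91) and -0.72 for Catsperz (SE 1.06). The mean normalized signal in that deposited table was 25.8 for Car4, 159 for Emb, 12.1 for Apela and 10.3 for Catsperz, against 577, 961, 52.5 and 85.0 in the authors' deposited table for Luc. Each deposited table was normalized separately. Without LucOS vector 1, the difference of Car4 was 0.04 and that of Catsperz 0.22 on the log2(TPM + 1) scale, so their direction here rested on that tumour. The Catsperz value was also positive, at 0.07, without LucOS Aoah 3.

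**Figure D2:**
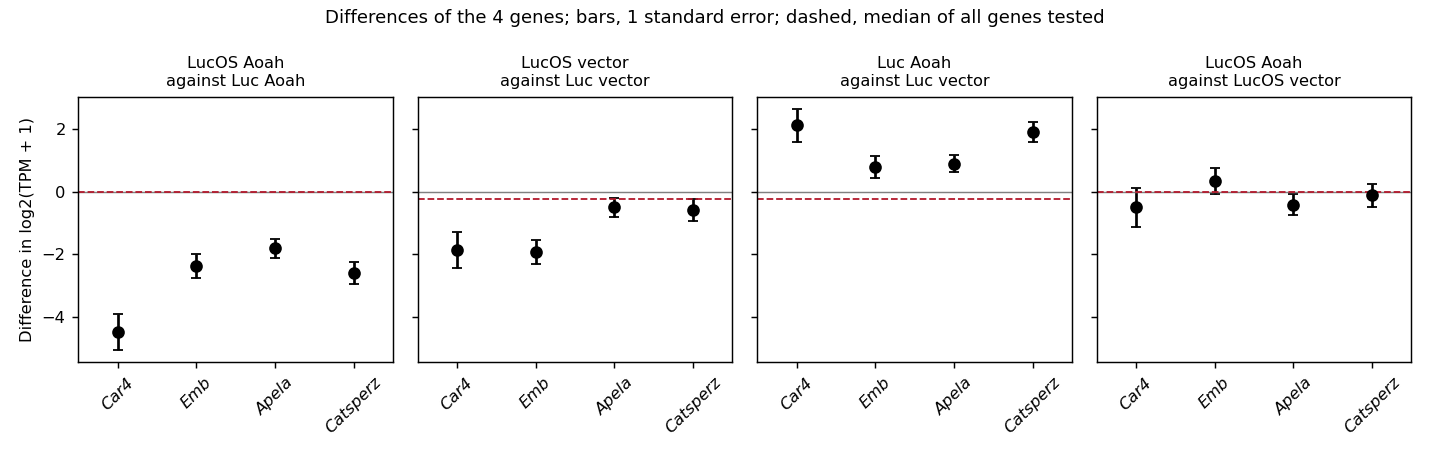
Difference in log2(TPM + 1) of Car4, Emb, Apela and Catsperz in each of 4 comparisons, with bars of 1 standard error and a dashed line at the median of all genes tested. In the first panel, which chose the genes, values run from -4.48 to -1.80. In the vector panel Car4 is at -1.87 and Emb at -1.91, and in the LucOS panel all 4 lie within 1 standard error or a little more of 0.

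Genes varied among the 14 tumours also within their groups. As deviations from the group mean, over 14 tumours in the same libraries, Car4 and Catsperz had r = 0.67 (rho 0.59) and Car4 and Emb r = 0.67 (rho 0.52). Without Luc Aoah 2 and Luc vector 4, the tumours farthest out in Car4, these were 0.69 and 0.27, so the relation of Car4 with Emb rested on those tumours. Emb and Catsperz had r = 0.60, and 0.31 without the same tumours. The pairs with Apela had r from 0.24 to 0.37.

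By Pearson r of log2(TPM + 1) over the 14 tumours, which span the 4 groups, the genes most like Car4 were Adipoq (0.96), Gnai1 (0.94), Serpinb1c (0.93), Catsperz (0.92) and Cidea (0.92). Most like Emb were Gnai1 (0.96), Smim24 (0.94), Ctbp2 (0.93), Car4 (0.92) and Cidea (0.92). Those most like Apela were Vamp3 (0.86), Catsperz (0.86), Car4 (0.85), Mmp27 (0.84) and Tmigd3 (0.83). Catsperz ran closest to Vamp3 (0.93), Serpinb1c (0.92), Car4 (0.92), Kcnk4 (0.91) and Far2 (0.90). These values include the group differences that chose the genes. Within groups the r of Emb with Ctbp2, a transcriptional corepressor, was 0.93, and that of Car4 with Adipoq, the fat-cell hormone adiponectin, was 0.86. Car4 with Cidea (0.87), Emb with Smim24 (0.84), Car4 with Gnai1 (0.84) and Car4 with Serpinb1c (0.83) were close to that. Lower values within groups included Catsperz with Kcnk4 (0.43), Apela with Mmp27 (0.47) and Apela with Car4 (0.24).

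Some markers of fat cells moved with Car4 and others did not. Adipoq had 0.03 TPM in each LucOS Aoah tumour, against 1.81, 8.06, 3.53 and 3.22 TPM in Luc Aoah tumours. It had 0.25, 0.43 and 0 TPM in LucOS vector tumours, against 0.85, 0.47, 1.04 and 4.64 TPM in Luc vector tumours. Luc Aoah 2 and Luc vector 4 were highest in their groups in Adipoq, as they were in Car4 and Emb. The lipid droplet protein gene Cidea averaged 0.380 TPM in LucOS Aoah and 10.4 TPM in Luc Aoah tumours, and 0.740 TPM in LucOS vector and 7.34 TPM in Luc vector tumours. Plin1, which coats lipid droplets, did not exceed 0.04 TPM in LucOS tumours and had 0.13 to 2.15 TPM in Luc tumours.

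The summed adipocyte list, 9 of whose 10 genes were in the table, was 82.8 to 102 TPM in LucOS Aoah against 127 to 196 TPM in Luc Aoah tumours, and 72.8 to 132 TPM in LucOS vector against 63.4 to 140 TPM in Luc vector tumours. Most of each sum was Fabp4, which other liver cells also express. On the log2(TPM + 1) scale, LucOS Aoah against Luc Aoah differed by -2.77 for Cidea, -1.11 for Cidec, -0.68 for Plin1 and -0.52 for Fabp4, but by -0.02 for Pparg and 0.28 for Lipe. In Luc Aoah against Luc vector, where Car4 was higher by 2.11, Plin1 differed by -0.12, Pparg by -0.39 and Lipe by -0.65. Cfd averaged 0.0333 TPM in LucOS Aoah and 0.668 TPM in Luc Aoah tumours, but 0.697 TPM in LucOS vector and 0.288 TPM in Luc vector tumours. Retn averaged 0.157 and 0.508 TPM in the Aoah groups, and 0.323 and 0.185 TPM in the vector groups, LucOS first. The list was added after the values of Adipoq had been seen, so it has no test. Without Luc Aoah 2 and Luc vector 4 the LucOS Aoah against Luc Aoah differences were -4.10 for Car4, -1.97 for Emb, -1.73 for Apela and -2.30 for Catsperz. The part of fat-cell RNA in these differences was not tested, and in bulk samples fewer cells of a type and less RNA per cell cannot be told apart.

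**Figure D3:**
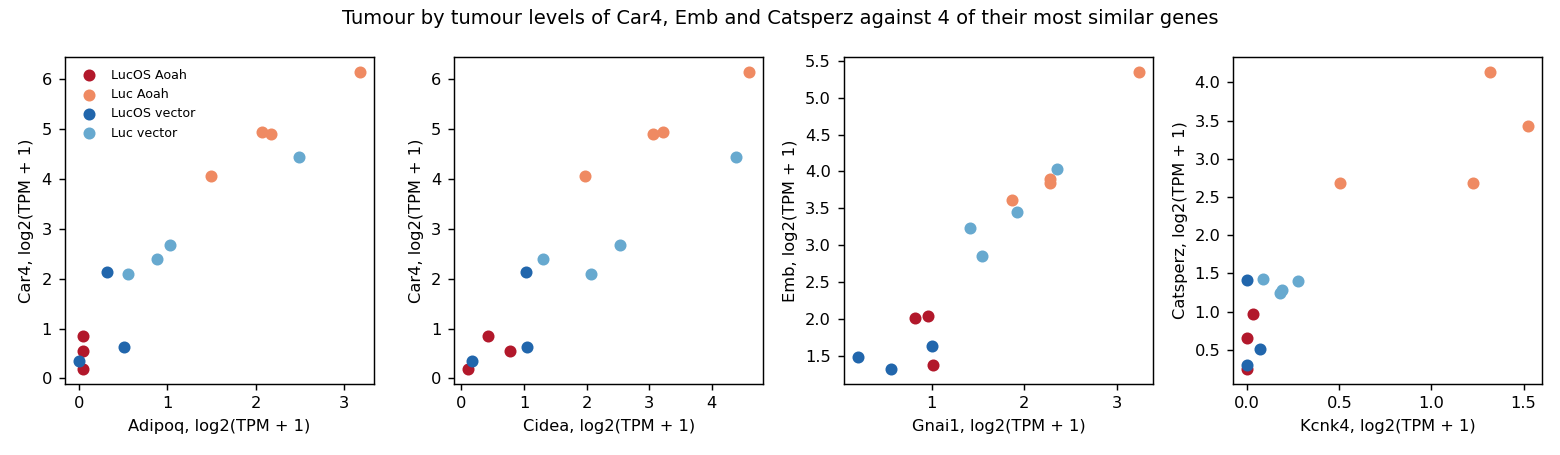
Levels in log2(TPM + 1) of Car4 against Adipoq and against Cidea, of Emb against Gnai1 and of Catsperz against Kcnk4, with 1 point per tumour in the colour of its group. The LucOS tumours gather at the low end of each panel. Luc Aoah 2 is the top point for Car4 and Emb, and Luc Aoah tumours alone reach 0.42 TPM or more of Kcnk4.

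Other cell markers were checked for tissues in which the 4 genes are known. The capillary endothelium list (Gpihbp1, Rgcc and Cd300lg) summed to 9.78 to 17.0 TPM in LucOS Aoah against 25.6 to 31.8 TPM in Luc Aoah tumours, but to 7.01 to 13.8 TPM in LucOS vector against 5.44 to 9.00 TPM in Luc vector tumours. In Luc Aoah against Luc vector tumours Gpihbp1 rose by 1.87 (SE 0.25, limma adjusted p = 0.000352) and Rgcc by 1.39 (SE 0.33, limma adjusted p = 0.0127), while Cd300lg differed by 0.29 (limma adjusted p = 0.410). The 10 general endothelial markers summed to 14.6 to 35.7 TPM in LucOS Aoah against 26.0 to 50.2 TPM in Luc Aoah tumours, and 9.54 to 26.7 TPM in LucOS vector against 8.50 to 30.8 TPM in Luc vector tumours. None of the 10 was called in LucOS Aoah against Luc Aoah or LucOS vector against Luc vector tumours, beside 0.0817% and 0% of all genes. In Luc Aoah against Luc vector tumours 4 rose (limma), where 7.93% of all genes were called higher. Tek, among these 4, passed the filter mainly through Luc Aoah tumours, at 1.10 to 1.45 TPM, so its call is not support. Male germ cell markers, 5 of 8 of them in the table, were under 1 TPM in all 14 tumours, and the 6 kidney tubule markers were too. The lung epithelium gene Sftpc had 0 to 0.52 TPM in LucOS Aoah against 1.02 to 3.40 TPM in Luc Aoah tumours. Sftpa1 and Ager went the other way, with means of 0.540 and 0.250 TPM in LucOS Aoah against 0.150 and 0.0575 TPM in Luc Aoah tumours. None of the 4 lung markers besides Sftpc exceeded 1 TPM in any tumour, and Sftpb and Scgb1a1 were at 0 in both Aoah groups. The neutrophil list moved the other way from the 4 genes, at 125 to 430 TPM in LucOS Aoah against 48.9 to 97.6 TPM in Luc Aoah tumours, and 392 to 893 TPM in LucOS vector against 119 to 370 TPM in Luc vector tumours. The part of these cell types in the 4 genes' differences was not tested.

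Neighbouring genes did not share 1 pattern. Catsperz overlaps the potassium channel gene Kcnk4 on the same strand in GENCODE M21, so reads there may be shared and the 2 levels are uncertain. Kcnk4 had 0 to 0.02 TPM in LucOS Aoah against 0.42 to 1.88 TPM in Luc Aoah tumours, and 0 to 0.05 TPM in LucOS vector against 0.06 to 0.21 TPM in Luc vector tumours. Kcnk4 passed the filter only through Luc Aoah tumours and is also among the genes most like Catsperz, so its differences of 0.96 in Luc Aoah against Luc vector and -1.13 in LucOS Aoah against Luc Aoah are descriptions with no test. Esrra, on the other side of Catsperz and coding for an orphan nuclear receptor, differed by -0.37 (SE 0.19, limma adjusted p = 0.746) in LucOS Aoah against Luc Aoah tumours.

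For Car4 the neighbours Znhit3 and Usp32 differed by -0.41 (SE 0.39) and -0.08 (SE 0.27) in LucOS Aoah against Luc Aoah tumours, and neither was called (limma adjusted p = 0.871 and 0.970). Parp8, next to Emb, had at most 1.88 TPM in any tumour, and Trim61 and Smim31, on either side of Apela, at most 0.13 and 0.62 TPM, and none of these 3 passed the filter. Gm17509 overlaps Emb on the other strand and had at most 0.07 TPM. Gm45886 overlaps Apela on the same strand, with 0 to 0.26 TPM in LucOS Aoah against 0 to 0.13 TPM in Luc Aoah tumours, and 0.38 to 1.12 TPM in LucOS vector against 0 to 0.75 TPM in Luc vector tumours. No source used here gives the strand setting of the counting, so reads of overlapping genes cannot be told apart.

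Other genes of the 4 pathways were listed by pathway, with earlier results of these data known: 76 genes, of which 71 were in the table and 41 passed the filter. In LucOS Aoah against Luc Aoah tumours 0 of 41 were called (limma), with a median difference of 0.03 beside -0.01 for all genes, and 944 of all genes had an unadjusted p under 0.05. In LucOS vector against Luc vector tumours 0 of 41 were called, with a median of -0.40 beside -0.25. In LucOS Aoah against LucOS vector tumours 2 of 41 were called, 1 higher and 1 lower, beside 0.965% of all genes. In Luc Aoah against Luc vector tumours 12 of 41 were called, 5 higher and 7 lower, beside 22.2% of all genes. Mme, Slc4a1, Arrb1, Car5a and Car7 are in this count, though each passed the filter mainly through the group or groups where it is high. The 2 calls in LucOS were Car5a and Car7.

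Among carbonic anhydrases and bicarbonate carriers, 16 of 28 were tested, and in Luc Aoah against Luc vector tumours 3 rose and 3 fell. Of all genes, 7.93% were called higher and 14.3% lower there. Car5a, the mitochondrial isoform of hepatocytes, had a mean of 12.5 TPM in Luc Aoah against 0.408 TPM in Luc vector tumours, a rise of 3.21 (SE 0.36, limma adjusted p = 0.00011). Car5a also rose in LucOS Aoah against LucOS vector tumours, by 2.07 (SE 0.41, limma adjusted p = 0.0332). It passed the filter mainly through Aoah tumours, where it is high, so its calls are not support. Car8, which lacks enzyme activity, rose by 1.32 and Car3, a cytosolic isoform of fat, muscle and liver, by 2.07 in Luc Aoah against Luc vector tumours. In LucOS Aoah against LucOS vector tumours Car8 differed by 0.69 (limma adjusted p = 0.225) and Car3 by 2.48 (limma adjusted p = 0.0827), neither called. Car7, another cytosolic isoform, fell with Aoah in both models, with differences of -1.91 in Luc (limma adjusted p = 0.000917) and -1.56 in LucOS (limma adjusted p = 0.0466). Car7 ranged over 0.34 to 0.81 TPM in Luc Aoah and over 0.28 to 0.75 TPM in LucOS Aoah tumours. It passed the filter only through vector tumours, where it is high, so its calls are not support. The other called genes of the list, the bicarbonate exchangers Slc4a1 and Slc4a2, fell in Luc Aoah against Luc vector tumours, with differences of -1.14 and -1.08. Slc4a1 ranged over 0.24 to 3.17 TPM with Luc vector and over 0.04 to 0.15 TPM with Luc Aoah. It passed the filter mainly through Luc vector tumours, where it is high, so its call is not support.

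Car2, a widely expressed cytosolic isoform, averaged 48.6 ± 21.4 TPM in LucOS Aoah (SD, n = 3) and 42.8 ± 12.4 TPM in Luc Aoah tumours (SD, n = 4), a difference of 0.14 (limma adjusted p = 0.947). Car9, the hypoxia-inducible isoform, averaged 0.367 TPM in LucOS Aoah and 0.468 TPM in Luc Aoah tumours and did not pass the filter.

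The lactate list had 14 of 20 genes tested. Basigin (Bsg), the close relative of embigin that carries the same transporters, fell by 0.68 (limma adjusted p = 0.0284) in Luc Aoah against Luc vector tumours, and Slc16a6 fell by 1.05 (limma adjusted p = 0.0375). Bsg was the more abundant chaperone by TPM, with a mean of 476 TPM in LucOS Aoah and 475 TPM in Luc Aoah tumours, and its difference of 0.03 (SE 0.21) was not called (limma adjusted p = 0.981). The lactate transporter Slc16a1 averaged 45.1 TPM in LucOS Aoah and 39.1 TPM in Luc Aoah tumours, and Slc16a7 averaged 41.4 and 47.0 TPM in those groups. Neither was called in any of the 4 contrasts.

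Of the apelin receptor axis, 8 of 11 genes were tested. Gnai1, among the genes most like Car4 and Emb, belongs to this list and was not called. It differed by -1.49 (SE 0.31) in LucOS Aoah against Luc Aoah and by -1.22 (SE 0.31) in LucOS vector against Luc vector tumours. The medians of the list in those contrasts were 0.12 and -0.58. In Luc Aoah against Luc vector tumours plasma kallikrein, Klkb1, rose by 1.06 (limma adjusted p = 0.0349). The peptidase gene Mme ranged over 0.61 to 2.37 TPM in the Luc Aoah group and over 0.06 to 0.23 TPM with Luc vector. Mme is counted among the calls of this contrast, but it passed the filter mainly through Luc Aoah tumours, where it is high, so its call is not support. The convertase Furin fell by 1.69 (limma adjusted p = 0.0337) and the arrestin Arrb1 by 0.83 (limma adjusted p = 0.0408). Arrb1 ranged over 0.65 to 2.78 TPM with Luc vector and over 0.19 to 1.01 TPM with Luc Aoah. It passed the filter mainly through Luc vector tumours, where it is high, so its call is not support either. In LucOS Aoah against LucOS vector tumours Klkb1 differed by 1.45, Mme by 0.54, Furin by -0.23 and Arrb1 by 0.18. None of these was called there. The receptor Aplnr had 0.01 to 0.67 TPM in LucOS Aoah and 0.15 to 0.81 TPM in Luc Aoah tumours. The other ligand, Apln, averaged 0.380 TPM in LucOS Aoah and 0.580 TPM in Luc Aoah tumours. Neither receptor nor other ligand passed the filter.

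Of 17 genes on the CatSper list 12 were in the table. The 3 tested were Catsper2, Hvcn1 and Abhd2, of which only Catsper2 is named for the channel, with no call in any contrast. Catsper2 had 0.42 to 1.19 TPM over the 14 tumours, and the pore genes Catsper3 and Catsper4 did not exceed 0.16 and 0.03 TPM. Efcab9, whose protein binds Catsperz in sperm, had 0 to 0.59 TPM. Catsper1, Catsperb, Catspere1, Catsperg2 and Slco6c1 were not analysed here.

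The count of 12 related genes in Luc Aoah against Luc vector tumours rested on individual tumours, as did the count over all genes. It was 5 without Luc Aoah 1, 18 without Luc Aoah 2, 6 without Luc Aoah 3 and 4 without Luc Aoah 4. Over all 13466 genes the 2988 calls became 1390, 5269, 1160 and 867 in the same order. The related count was 6 without Luc vector 1, 15 without Luc vector 2, 5 without Luc vector 3 and 6 without Luc vector 4. All genes called were then 1264, 4424, 982 and 1152. Without Luc vector 1 and Luc vector 3 together the related count was 3, beside 361 of all genes. The 2 related calls in LucOS, Car5a and Car7, became 0 without LucOS Aoah 1, LucOS Aoah 3 or LucOS vector 3, 1 without LucOS vector 1, and 3 without LucOS Aoah 2 or LucOS vector 2. The 130 calls over all genes became 13, 14 and 23, then 62, and then 227 and 353, in the same order.

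**Figure D4:**
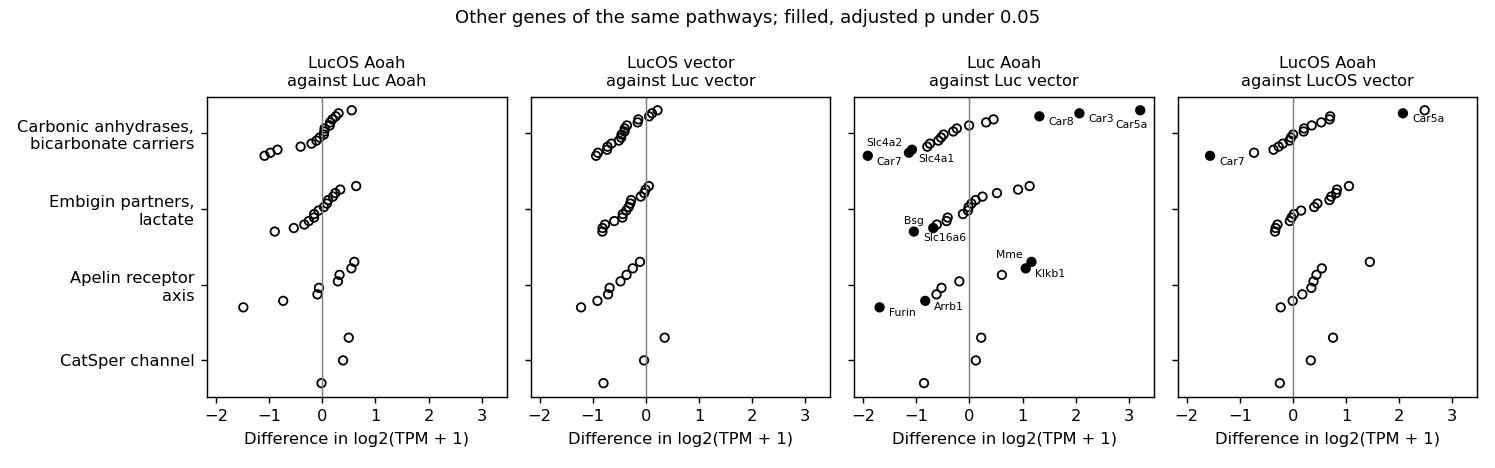
Difference in log2(TPM + 1) of the 41 tested related genes in 4 comparisons, by pathway, with filled points for an adjusted p under 0.05 (limma). No point is filled in either antigen comparison, 12 are in Luc Aoah against Luc vector and 2 are in LucOS Aoah against LucOS vector.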

How the data were processed

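RNA was measured in 14 bulk tumours, per the labels' protocols by TRIzol extraction, poly-T capture and random priming. Per the submitters' processing notes RSEM, DESeq2 and mm39 were used. No source used here names the aligner. The authors deposited log2 values of TPM plus 1, without counts. Their 2 deposited comparison tables hold log2 fold changes, p-values, which were not used, and a mean normalized signal per gene. The receptor repertoire table was not used. Groups came from the labels. limma 3.58.1 in R 4.3.3 was fitted to log2(TPM + 1), with 1 mean per group over 14 tumours, trend and robust moderation, genes at 1 TPM or more in at least 3 tumours, and Benjamini-Hochberg adjustment at 0.05. This scale understates changes of low genes. The script was tested on simulated data. The 4 genes and the lists were chosen with earlier results of these data known. Named genes were the 4, their 5 most similar, related genes called (at most 4 per list and contrast by p) with direct partners, neighbours, and Aoah. Slc4a1, Slc4a2, Rn7sk and the single marker genes were singled out after their values were seen. Alternatives changed pseudocount, filter, normalization, block, moderation and tumours.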

Additional observations from a re-analysis of the deposited data

Results flagged for a closer look

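Luc Aoah 2 had 39.70 TPM of Emb, far from the 11.19 to 13.88 TPM of the other 3 Luc Aoah tumours. Luc Aoah 1 had 1.79 TPM of Apela, apart from the 4.13 to 4.48 TPM of the other 3. Chance flags about 1 in 20 groups in this way. For Car4 and Apela the Aoah difference was lower in LucOS than in Luc, by -2.61 and -1.31 on the log2(TPM + 1) scale. Every Luc Aoah tumour lay above the Luc vector mean and every LucOS Aoah tumour below the LucOS vector mean for these genes. Catsperz, at -2.01, and Emb, at -0.45, did not have every tumour on opposite sides. The difference between the models was not tested, since the Aoah tumours chose the genes.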

How the results depend on the processing

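Of 203 values of the 4 genes under alternatives, 198 stayed within the error or on the same side of the threshold. With a pseudocount of 0.1, LucOS Aoah against Luc Aoah gave -5.97 for Car4, -3.21 for Apela and -3.83 for Catsperz, and LucOS Aoah against LucOS vector gave -0.95 for Apela. Emb in LucOS vector against Luc vector passed the threshold, at -1.70 (limma adjusted p = 0.0493), without Luc Aoah 2 and Luc vector 4 together, an alternative chosen after seeing the data, but not without Luc vector 4 alone (limma adjusted p = 0.461). The cause was not tested.

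Related genes called in Luc Aoah against Luc vector tumours, 12, became 5 with no filter, 3 without Luc vector 1 and Luc vector 3 together, and 4 to 18 with 1 tumour left out. The 2 calls in LucOS Aoah against LucOS vector became 0 with no filter, 1 at 5 TPM or more, 0 with only the groups compared, and 0 to 3 with 1 tumour left out. In LucOS Aoah against Luc Aoah, quantile normalization gave 1 call in place of 0. Over all alternatives, genes called among 13466 ranged from 0 to 27 around 11 in LucOS Aoah against Luc Aoah, 0 to 4 around 0 in LucOS vector against Luc vector, 361 to 5269 around 2988 in Luc Aoah against Luc vector, and 6 to 353 around 130 in LucOS Aoah against LucOS vector. Apela has no value under the 5 TPM filter, which it did not pass.

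Same-numbered tumours had correlations of their deviations from -0.554 to 0.198. The labels do not say whether equal numbers share anything else, so this is unknown. With the replicate number as a block, related genes called were 5 in Luc Aoah against Luc vector and 0 in LucOS Aoah against LucOS vector. All genes called under that block were 0 in LucOS Aoah against Luc Aoah, 0 in LucOS vector against Luc vector, 1168 in Luc Aoah against Luc vector and 34 in LucOS Aoah against LucOS vector. Under the block Emb in the vector contrast was -1.85 (limma adjusted p = 0.446).

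Groups of 3 or 4 tumours, unknown depth and levels under 1 TPM limit these values.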
